A study of Mus musculus with 8 samples.

Results

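The MHC class I antigen presentation genes examined here are H2-K1, H2-D1, B2m, Tap1, Tap2, Tapbp, Psmb8, Psmb9, Psmb10 and Cd74, followed over 24 h of sodium butyrate treatment in mouse colonic epithelial cells. They were chosen by gene symbol: every probe set that the platform annotation lists for one of these 10 genes alone was taken, which gave 26 of the 22690 probe sets on the array. A probe set is a group of short probes that together report 1 transcript signal. A further 3 probe sets list H2-K1 or H2-D1 together with other genes and are described apart. Of the 26, 13 passed a filter on low signals and were tested, and these cover 6 of the 10 genes. Tap1, Tap2, Psmb8 and Psmb9 had no probe set that passed, and their signals are given without a test of the main kind.

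The cells were MCE301, an epithelial line from the colon of mice carrying a transgene for a temperature-sensitive SV40 large T antigen, so all groups share that viral protein and 1 line. Sodium butyrate, a bacterial fermentation product and histone deacetylase inhibitor, was given at 2 mM, and RNA was taken after 0, 6, 12 and 24 h. There are 2 arrays per time (8 altogether), and the labels leave unstated whether they came from separate cultures, so p-values measure the spread between arrays, which may be technical. The arrays hold no untreated cells at the later times, so time in culture and butyrate cannot be told apart. On each of the 8 arrays the trimmed mean signal was 500.2, and the median signal was between 140.1 and 153. As a sign of RNA quality, the ratio of the 3' over the 5' Gapdh control lay between 0.767 and 0.878. In each comparison the median log2 change of all tested probe sets was between -0.001 and 0.032, under 0.1 in size.

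MHC class I molecules show peptides from inside the cell to CD8 T cells and are read by natural killer cells. A heavy chain, encoded in these mice by genes such as H2-K1 and H2-D1, pairs with the light chain beta-2-microglobulin from B2m. Peptides are cut by the proteasome, in which Psmb8, Psmb9 and Psmb10 replace the standard catalytic subunits to form the immunoproteasome, pumped into the endoplasmic reticulum by the Tap1 and Tap2 transporter, and loaded with the help of tapasin, the product of Tapbp. Cd74, the invariant chain, is best known as the chaperone of MHC class II and is the member that stands outside the class I route. Intestinal epithelium carries class I at its surface, and interferon is the classic inducer of the pathway as a whole.

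Heavy chain and B2m genes are known to share a short upstream control region, with a kappa B site, an interferon response element, a cAMP-response-like X2 site and a CCAAT-type Y box. Because H2-K1, H2-D1 and B2m were the members with the largest rises, their RefSeq promoter windows (assembly GRCm38.p6, 250 bases before to 50 after the gene start) are shown, with matches in capitals. The windows are chr17:34000298-34000597 on the minus strand for H2-K1, chr17:35262844-35263143 on the plus strand for H2-D1 and chr2:122147437-122147736 on the plus strand for B2m. They are reference sequence, and may differ from that of these cells: the labels name no strain for MCE301, and class I loci are among the most polymorphic of the mouse genome.
H2-K1: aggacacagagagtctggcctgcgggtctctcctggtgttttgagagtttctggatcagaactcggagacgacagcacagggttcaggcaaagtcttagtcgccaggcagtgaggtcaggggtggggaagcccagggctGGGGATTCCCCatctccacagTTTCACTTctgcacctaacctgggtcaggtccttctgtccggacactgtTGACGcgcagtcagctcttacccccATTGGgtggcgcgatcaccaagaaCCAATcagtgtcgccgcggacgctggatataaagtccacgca
H2-D1: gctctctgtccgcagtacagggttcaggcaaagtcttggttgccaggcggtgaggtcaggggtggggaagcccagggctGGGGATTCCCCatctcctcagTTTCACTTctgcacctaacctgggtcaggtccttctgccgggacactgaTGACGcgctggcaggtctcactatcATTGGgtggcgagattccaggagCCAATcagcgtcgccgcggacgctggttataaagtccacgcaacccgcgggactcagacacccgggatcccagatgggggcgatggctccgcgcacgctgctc
B2m: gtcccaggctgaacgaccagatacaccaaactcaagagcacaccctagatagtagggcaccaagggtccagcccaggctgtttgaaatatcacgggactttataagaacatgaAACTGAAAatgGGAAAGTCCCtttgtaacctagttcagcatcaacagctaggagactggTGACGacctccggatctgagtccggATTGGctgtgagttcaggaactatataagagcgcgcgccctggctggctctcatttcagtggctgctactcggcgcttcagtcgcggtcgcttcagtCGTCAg
Capitals mark TTTCNNTT (a core of the interferon response element), TGACG (a core of the cAMP response element), CCAAT, and the NF-kB consensus, each searched on both strands. Overlapping matches run together, as do the 2 NF-kB matches of H2-K1 and of H2-D1. The H2-K1 and H2-D1 windows were 88.3% identical over 239 aligned bases. H2-K1 had 2 such windows, and the one shown is that farthest upstream. Counted from the annotated start of the window shown, the NF-kB matches of H2-K1 began at -111 and -110 and the interferon core at -90. H2-D1 had the same order at -171, -170 and -150, while in B2m the interferon core came first, at -137, with the NF-kB match at -126. In all 3 windows the first TGACG match was followed by a CCAAT match 25 bases on. Of 32851 such windows in the table, 23.9% held TTTCNNTT, 20.8% TGACG, 37.4% CCAAT, 8.46% the NF-kB consensus and 0.110% all 4. The motifs were picked with these sequences known, so the co-occurrence is a description.

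Of the 10 members, 8 had a window in the table, all but Tap2 and Cd74. The Tap1 and Psmb9 genes lie back to back, and their windows share 275 bases. Each holds 1 TGACG and 1 CCAAT match, which are the same sites read from opposite strands. Tapbp had 2 CCAAT matches. In the windows of Psmb8 and Psmb10 these letters were not found.

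**Figure D1:**
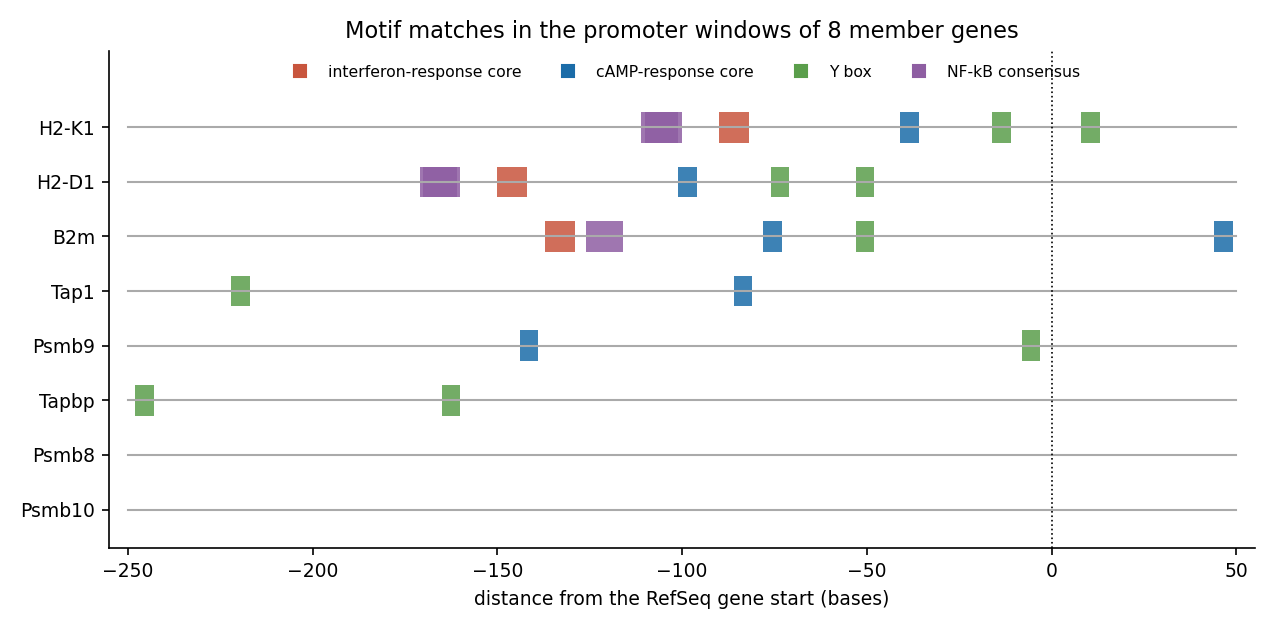
Positions of the motif matches in the promoter windows of 8 member genes, as the distance in bases from the RefSeq gene start (dotted line). Boxes are matches on either strand: interferon-response core, cAMP-response core, Y box and NF-kB consensus. All 4 kinds appear in H2-K1, H2-D1 and B2m, where the order from cAMP-response core to Y box is the same. The matches drawn for Tap1 and Psmb9 are the same sites, in windows that overlap.

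The heavy chain genes and B2m rose severalfold, and the largest change of a member probe set was that of H2-K1 1425336_x_at. This rank rests on that set. H2-K1 sets 1451931_x_at and 1427746_x_at had 24 h log2 changes of 2.33 and 2.65, below those of the B2m sets (3.04 and 2.99). H2-K1 (probe set 1425336_x_at) had signals of 485 and 416 on the 0 h arrays, 902 and 677 at 6 h, 2678 and 2025 at 12 h, and 6276 and 5063 at 24 h. The 2 arrays of each time lay apart from those of every other time. On the scale of log2(signal + 32) used in all fits, the change from 0 h was 0.76 ± 0.21 (SE) at 6 h, 2.29 ± 0.21 at 12 h and 3.56 ± 0.21 at 24 h, with limma adjusted p-values of 0.0443, 0.000106 and 3.58e-06. The 24 h change of this set was the 6th largest rise among 7340 genes, each read from its brightest tested set. The 6 h result of H2-K1 depended on single arrays: its adjusted p became 0.112 without 0 h replicate 1, 0.213 without 0 h replicate 2, 0.208 without 6 h replicate 1 and 0.0536 with quantile normalization.

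H2-D1 (1425545_x_at), another classical heavy chain, started at 833 and 1350.1. Its signals were 2561 and 1984 at 6 h, 4080 and 3356 at 12 h, and 7861 and 5609 at 24 h. No 0 h array reached the lowest of the treated ones. The log2 changes were 1.06 ± 0.26, 1.77 ± 0.26 and 2.61 ± 0.26, with adjusted p-values of 0.0267, 0.000847 and 4.38e-05. For H2-D1 at 6 h, dropping 0 h replicate 1 gave an adjusted p of 0.178 and dropping 6 h replicate 1 gave 0.127.

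These heavy chain values rest on probes that may not be private to 1 gene. All 4 H2-K1 probe sets and 7 of the 9 H2-D1 probe sets carry the suffix x_at, which the manufacturer gives to sets with probes that can also bind other transcripts, and class I genes are near copies of one another. A rise read as H2-K1 may therefore hold signal of H2-D1 or of other class I genes, and the share was not tested. The brighter sets moved together in both genes. H2-K1 1451931_x_at went from 361 and 566 at 0 h to 2469 and 2358 at 24 h (log2 change 2.33 ± 0.30), and 1427746_x_at from 116 and 129 to 1044 and 837 (2.65 ± 0.20). H2-D1 1451784_x_at went from 810 and 953 to 5094 and 6034 (2.61 ± 0.20). All 3 passed at 24 h. At 6 h the H2-D1 set passed (adjusted p = 0.0191, but 0.121 without 0 h replicate 1, 0.0641 without 0 h replicate 2, 0.104 without 6 h replicate 1), whereas the H2-K1 sets did not (0.316 and 0.397).

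The dimmer H2-D1 sets had smaller changes or stayed low. H2-D1 1451683_x_at rose from 93.9 and 94.9 to 509 and 474 (log2 change 2.05 ± 0.20), and 1426324_at, the one tested set with no x suffix, from 61.9 and 57.7 to 145 and 186 (1.10 ± 0.22, adjusted p = 0.00272). Both sets passed the filter of 144.7 through treated arrays, and 1426324_at through its 24 h arrays alone. Their calls were thus tied to their being tested and are no support. The other 5 H2-D1 sets stayed at or below a signal of 104 on every array, under the 144.7 that is the median of all signals. The fourth H2-K1 set, 1450534_x_at, had 48.7 and 66.8 at 0 h and 127 and 105 at 24 h. A probe set listed for both H2-K1 and H2-D1, 1424948_x_at, rose from 73.4 and 82.8 to 539.0 and 464 (log2 change 2.27 ± 0.20, adjusted p = 1.89e-05). The annotation's other 2 shared sets, which name H2-Q genes as well, did not pass the filter.

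**Figure D2:**
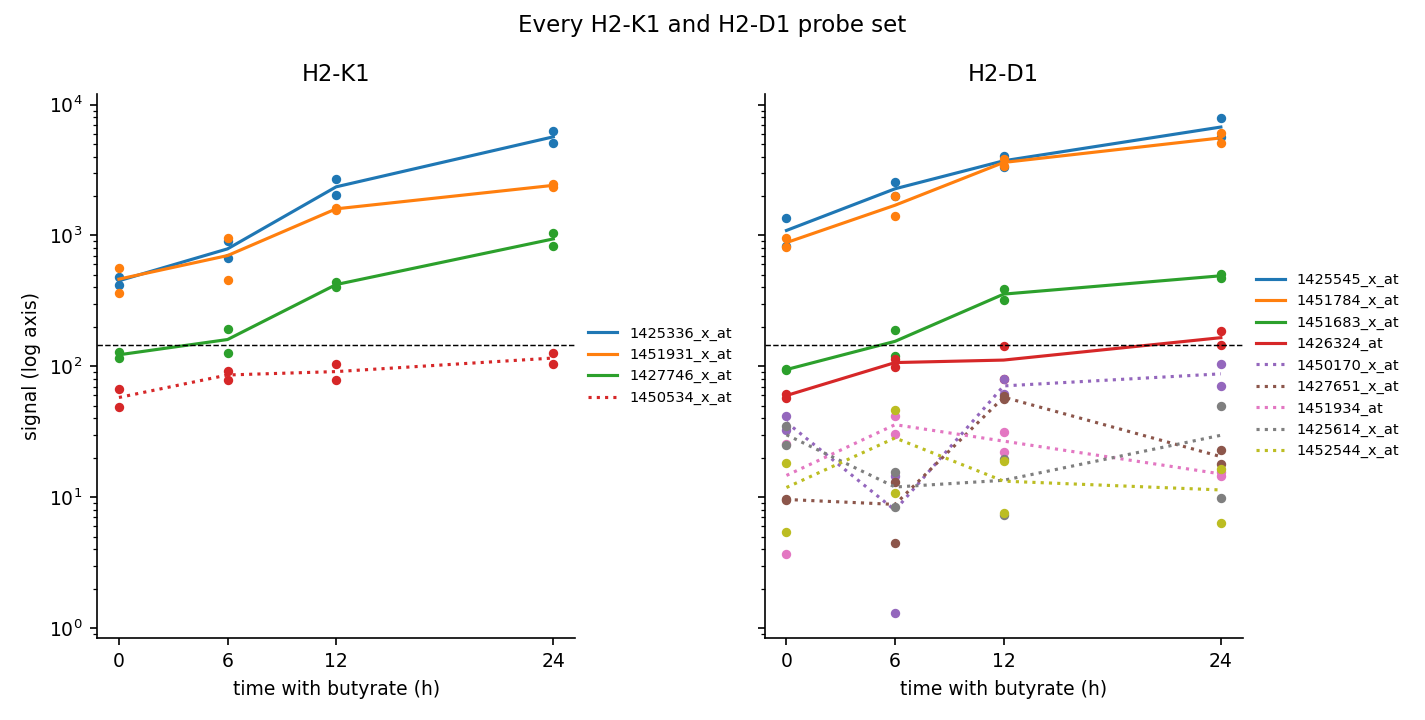
Signal (log axis) of every H2-K1 and H2-D1 probe set against time with butyrate in h. Points are single arrays, lines join the means of 2 arrays, solid lines are tested sets and dotted lines sets that did not pass the filter. The dashed line is the median of all signals, 144.7. The 3 brightest sets of each gene climb at each step, while 5 H2-D1 sets stay below the line.

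B2m, the light chain that pairs with the heavy chains, rose with them. With 1449289_a_at the signals were 119.6 and 119.9 at 0 h, 372 and 292 at 6 h, 748 and 699.7 at 12 h, and 1438 and 1027 at 24 h. The times did not overlap. Log2 changes of 1.25 ± 0.20, 2.32 ± 0.20 and 3.04 ± 0.20 had adjusted p-values of 0.00425, 6.96e-05 and 4.90e-06, and the last ranked 21st among 7340 genes. The second B2m set, 1452428_a_at, had 124 and 160.0 at 0 h and 1189.9 and 1522 at 24 h, a log2 change of 2.99 ± 0.25. Its 6 h change of 0.93 ± 0.25 passed (adjusted p = 0.0409) but not without 0 h replicate 1 (0.216), 0 h replicate 2 (0.101) or 6 h replicate 2 (0.200), among others. Neither B2m set carries the x suffix.

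The steps between neighbouring times are given per probe set, and differences between genes or sets were not tested. For H2-K1 the steps were 0.76 to 6 h, 1.54 ± 0.21 from 6 to 12 h (adjusted p = 0.00968) and 1.26 ± 0.21 from 12 to 24 h (0.00979). In H2-K1 the second step did not pass without 12 h replicate 1 (0.0649), nor the last without 12 h replicate 2 (0.0852) or 24 h replicate 1 (0.0725). B2m 1449289_a_at had its first step at 1.25, then 1.06 ± 0.20 (adjusted p = 0.0237), then 0.72 ± 0.20 (0.0720, and 0.0319 with the replicate number as a block). The middle step of this set rested on every array involved: dropping any 1 of these 4 gave an adjusted p between 0.0548 and 0.121. The second B2m set, 1452428_a_at, had another order: 0.93, then 0.75 ± 0.25 (adjusted p = 0.155), then its largest step of 1.31 ± 0.25 from 12 to 24 h (0.0185). That last step did not pass without any 1 of the 12 h or 24 h arrays (0.0511 to 0.128), and the sets give B2m no common order of steps. The H2-D1 sets differed too. From 6 to 12 h, 1425545_x_at had 0.71 ± 0.26 and did not pass (adjusted p = 0.182), while 1451784_x_at rose by 1.09 ± 0.20 (0.0241) and 1451683_x_at by 1.07 ± 0.20 (0.0263). Both of these calls were lost without 6 h replicate 2 (0.103 and 0.104), 12 h replicate 1 (0.0833 and 0.0783) or 12 h replicate 2 (0.149 and 0.161), and the second also without either 0 h array (0.0530). From 12 to 24 h the steps were 0.84 ± 0.26, 0.62 ± 0.20 and 0.44 ± 0.20, and these did not pass (0.111, 0.134 and 0.295).

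Genes for peptide transport and loading were low or changed little. Tap1, the first chain of the peptide transporter, was at 37.6 and 48.3 at 0 h, 69.1 and 64.3 at 6 h, 67.4 and 115 at 12 h, and 120.4 and 103 at 24 h with its brightest set, 1416016_at. The 24 h arrays were above the 0 h arrays, but every value was under the median of all signals. When all probe sets were fitted with no filter, the 24 h change was 0.94 ± 0.22 (adjusted p = 0.0213). The other 3 Tap1 sets stayed at or below 46.3 and had changes of -0.03 to 0.11 at 24 h. Tap2, the second chain, had 15 and 75.8 at 0 h and 132 and 80.7 at 24 h, and without the filter its change of 0.93 ± 0.40 did not pass (adjusted p = 0.151). Both 24 h Tap2 arrays lay above both 0 h arrays, with 80.7 and 75.8 the closest pair.

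Tapbp was well above the median from the start. Its brighter set, 1421812_at, had 1404 and 1336 at 0 h and 1737 and 2059 at 24 h. The 24 h change of 0.46 ± 0.20 (95% interval 0.01 to 0.91) did not pass (adjusted p = 0.0919), although it did with the replicate number as a block (0.0436). The second set, 1450378_at, rose from 409 and 414 to 736 and 629, a log2 change of 0.68 ± 0.17 with an adjusted p of 0.00861, which became 0.0642 when 24 h replicate 1 was dropped. At 6 and 12 h neither set passed, with changes of -0.08 to 0.23.

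The immunoproteasome subunits did not rise as a group, and Psmb10 fell. Psmb8 (1422962_a_at) had signals of 5.1 and 6.3 at 0 h and 6.4 and 31.0 at 24 h, and no array exceeded 31.0. Psmb9 (1450696_at) was at 27.8 and 3.9 at 0 h, 31.2 and 53.9 at 6 h, 78.7 and 62.4 at 12 h, and 65.7 and 92.4 at 24 h. Its later arrays lay above the 0 h ones, and without the filter the changes of 1.14 ± 0.29 at 12 h and 1.25 ± 0.29 at 24 h passed (adjusted p = 0.0409 and 0.0192) at signals below the median of the array on every sample.

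Psmb10 (1448632_at), the subunit that replaces Psmb7, went from 285 and 309 at 0 h through 225 and 309.5 at 6 h and 142 and 185 at 12 h to 106 and 158 at 24 h. The 6 h arrays overlapped those of 0 h and the later arrays lay below them. The log2 change was -0.76 ± 0.22 at 12 h (adjusted p = 0.0227) and -1.02 ± 0.22 at 24 h (adjusted p = 0.00369), or 2.03-fold lower at 24 h. Psmb10 did not pass at 12 h without 0 h replicate 1 (0.0742), 0 h replicate 2 (0.111) or 12 h replicate 1 (0.136). With the replicate number as a block, the fall from 6 to 12 h also passed (0.0473, against 0.171 without). The standard subunits that the 3 replace had 24 h changes of -0.10 ± 0.16 for Psmb5, 0.08 ± 0.21 for Psmb6 and -0.04 ± 0.16 for Psmb7, with adjusted p-values of 0.625, 0.776 and 0.850.

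Cd74 (1425519_a_at) had 61.1 and 107 at 0 h, 137 and 146 at 6 h, 163 and 216 at 12 h, and 373 and 231 at 24 h. Both arrays of each treated time were above both 0 h arrays. The change passed at 12 h (0.95 ± 0.25, adjusted p = 0.0171) and 24 h (1.52 ± 0.25, adjusted p = 0.000943), the first not without 0 h replicate 1 (0.137) or 12 h replicate 2 (0.108), nor with no filter (0.0666).

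**Figure D3:**
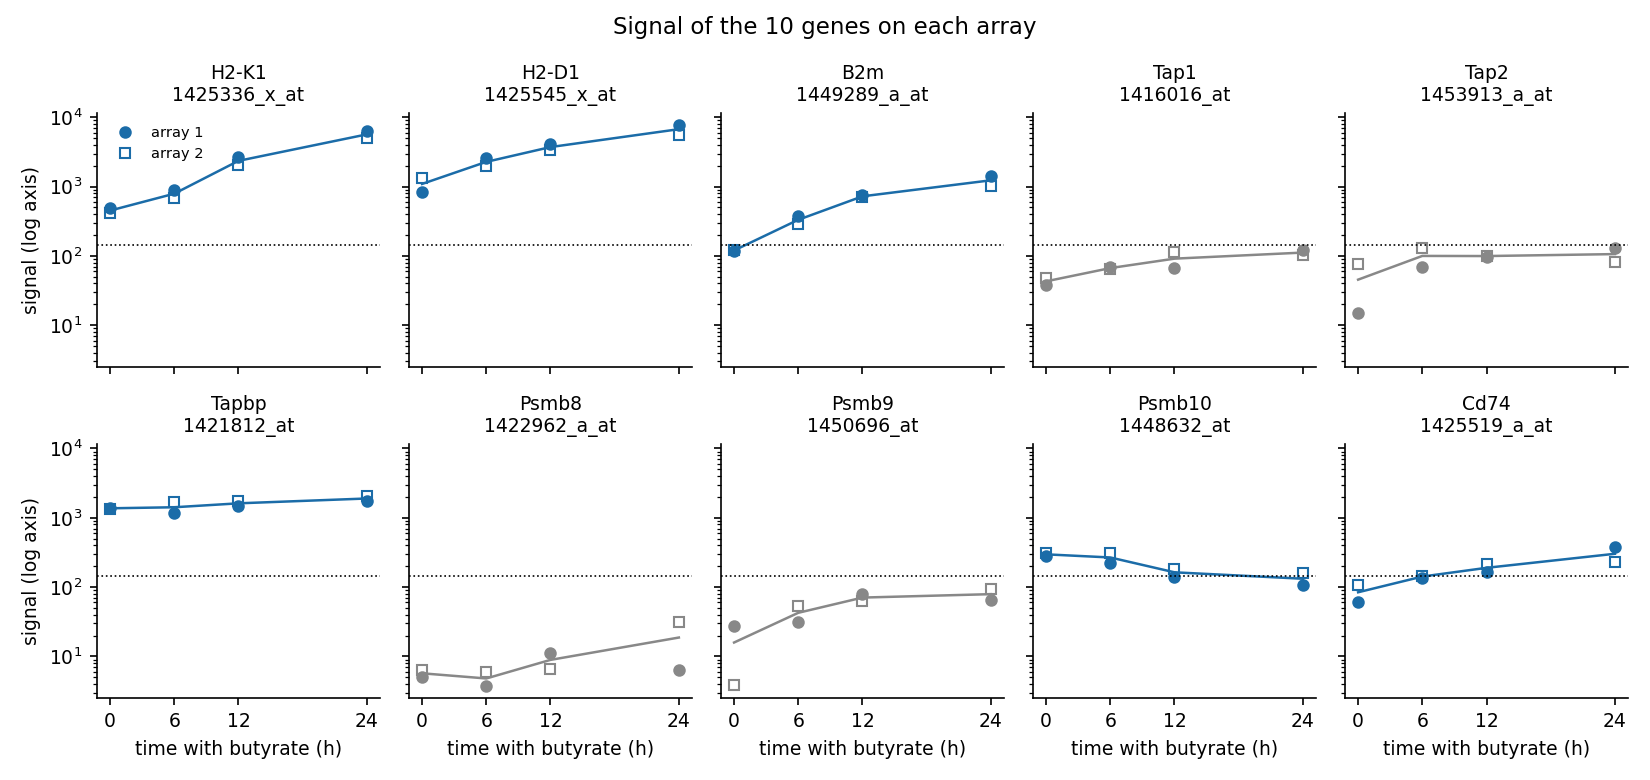
Signal (log axis) of the brightest probe set of each of the 10 genes on each array, against time with butyrate in h. Filled circles are replicate 1, open squares replicate 2, and lines join the means of 2 arrays. Blue marks genes that were tested, grey those that did not pass the filter, and the dotted line is the median of all signals, 144.7. H2-K1, H2-D1 and B2m rise by more than the array spread, while Psmb8 stays near the floor and Psmb10 ends below its start.

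Counted by gene, with each gene read from its brightest tested set, 3 of the 6 tested members (of 10 in all) were called higher at 6 h (H2-K1, H2-D1 and B2m), beside 7.83% of the 7340 genes tested (5.53% were lower). Dropping 0 h replicate 1, or 6 h replicate 1, left B2m alone in that count. At 12 h, 4 members were higher and 1 was lower, beside 17.2% and 16.6% of all genes, and the lower one, Psmb10, was not called without 0 h replicate 1, 0 h replicate 2 or 12 h replicate 1. At 24 h the counts were again 4 and 1, with the background at 23.5% and 22.6%. By probe set, 5 of the 13 tested (of 26 in all) were higher at 6 h, 9 at 12 h and 11 at 24 h, beside 6.68%, 16% and 22.1% of all 12440 tested. The lower one at 12 and 24 h was that of Psmb10, beside 15.9% and 22% (5.02% at 6 h). In the step from 6 to 12 h, H2-K1 and B2m rose (background 1.42% higher, 1.27% lower), and from 12 to 24 h H2-K1 rose (1.39% and 3.26%). Each of these step counts rested on the arrays named above. The median 24 h log2 change of the 6 tested members was 2.07, against 0.04 for all genes. Neither the counts nor this median can be read as a property of the pathway: the 4 genes with no tested set are left out, and 5 of the 13 tested sets (of H2-K1, H2-D1, B2m and Cd74) had both 0 h arrays at or below the median and passed the filter through treated arrays. Among the sets behind the gene counts and the median, these are 1449289_a_at of B2m and that of Cd74. The rest are 1427746_x_at of H2-K1 and 1451683_x_at and 1426324_at of H2-D1, which enter the counts by probe set.

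**Figure D4:**
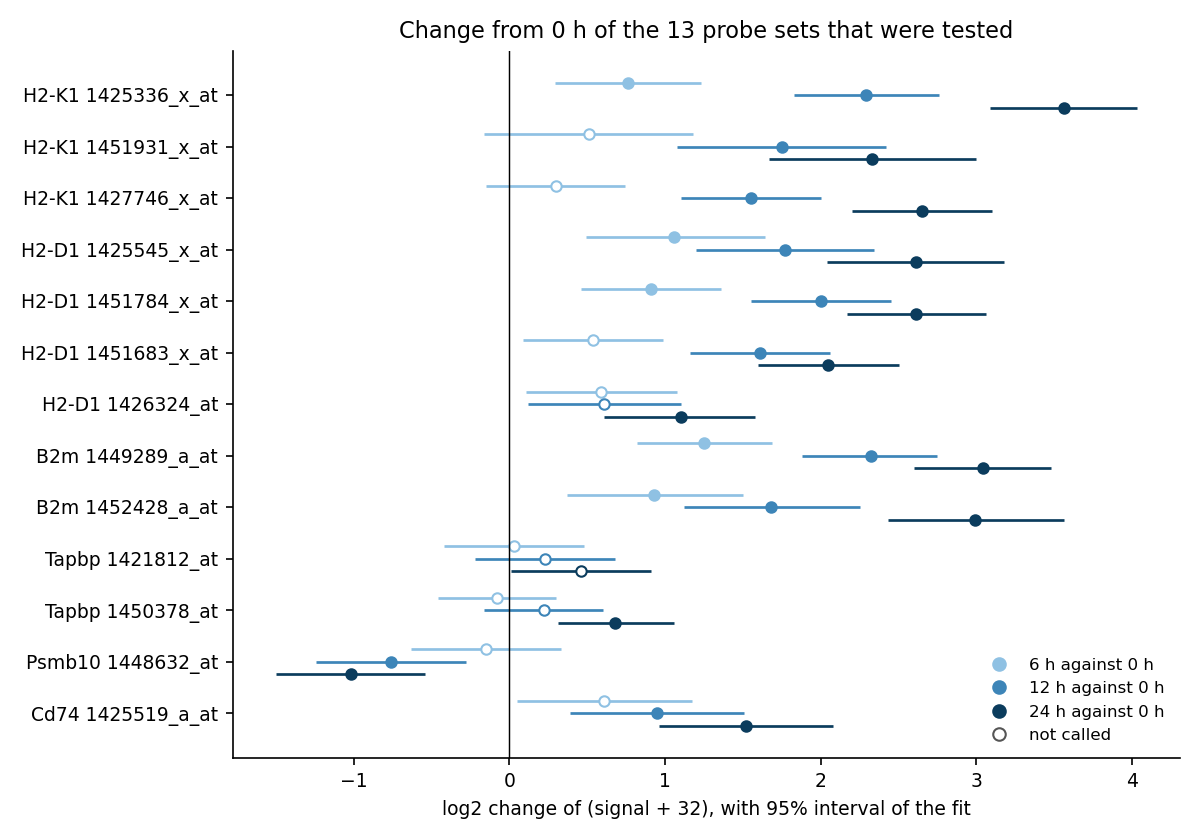
Log2 change of (signal + 32) from 0 h for the 13 tested probe sets, with the 95% interval of the limma fit. Light, middle and dark blue are 6, 12 and 24 h, and open points were not called. The 24 h changes run from -1.02 for Psmb10 to 3.56 for H2-K1, and both Tapbp sets stay below 1.

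Of the class I and class I-like genes outside the set, 2 were tested and both rose, beside 23.5% of all genes. Mr1 had a mean signal of 52.0 at 0 h and passed the filter through treated arrays, where it is high, so its count is no support. Mr1, which presents vitamin metabolites to MAIT cells, had a 24 h log2 change of 2.47 ± 0.27 (adjusted p = 7.72e-05). H2-M3, which presents formylated peptides, had one of 1.27 ± 0.20 (adjusted p = 0.000680). Of the other 22 genes of that list, 10 were on the array with a set of their own, and their brightest sets did not exceed 120.2.

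Of 18 tested genes of peptide supply and loading, 3 were higher and 4 lower at 24 h (median log2 change 0.01), beside 23.5% higher and 22.6% lower of all genes, so the counts are near or below the background. The peptidase gene Nrd1 rose by 1.28 ± 0.19 and the lysosomal protease gene Lgmn by 0.89 ± 0.19. Pdia3, the oxidoreductase of the loading complex, fell by 1.02 on the log2 scale (-1.02 ± 0.21, adjusted p = 0.00311) and the cytosolic aminopeptidase Npepps had a change of -0.74 ± 0.17. Calr and Canx, the lectin chaperones of heavy chain folding, had changes of -0.02 ± 0.16 and -0.17 ± 0.16 that did not pass (adjusted p = 0.928 and 0.426). Erap1, which trims peptides in the endoplasmic reticulum, was not tested. It had 153 and 109 on the 0 h arrays and 40.7 to 81.4 on the treated ones. Without 24 h replicate 1 the lower genes were 2, and with the replicate block the higher genes were 5.

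Among 19 tested transcription factors and cofactors of class I promoters, 2 were higher and 5 lower at 24 h (median -0.01). The background of 23.5% higher and 22.6% lower is near the lower count and above the higher one. Irf7, among the higher genes, had means of 99.0 at 0 h and 193 at 24 h and passed the filter through treated arrays. Crebbp, among the lower, had means of 238 at 0 h and 115 at 24 h and passed through its 0 h arrays. Calls of Irf7 and Crebbp were thus tied to their being tested, and the counts include them. Irf8, an interferon regulatory factor, rose by 0.95 ± 0.16 (adjusted p = 0.00121), from a mean signal of 167 to 351. Usf2, an E-box factor, changed by -1.44 ± 0.20, the acetyltransferase Kat2b by -1.22 ± 0.20 and the Y-box subunit Nfyc by -0.96 ± 0.22, all passing. Irf1 (0.14 ± 0.17, adjusted p = 0.555) and the X-box factor Rfx5 (-0.02 ± 0.18, adjusted p = 0.948) did not pass. Rela, the NF-kB subunit p65, changed by -0.67 ± 0.21 (adjusted p = 0.0241). The higher genes were 1 without 0 h replicate 1 or without either 24 h array, and the lower genes 3 without 0 h replicate 1 or 24 h replicate 2.

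Interferon receptor and signalling genes had 4 higher and 2 lower of 12 tested at 24 h (median 0.37), beside 23.5% and 22.6% of all genes. Ifngr2, a chain of the interferon gamma receptor, rose by 1.04 ± 0.20, while Ifngr1, the other chain, was lower at 12 h (-0.50 ± 0.17, adjusted p = 0.0451) and 24 h (-0.73 ± 0.17, adjusted p = 0.00583). Among signalling genes Stat3 rose by 0.99 ± 0.17 and the feedback inhibitor Socs3 by 0.87 ± 0.18. Ptpn2, a phosphatase of JAK and STAT proteins, had a change of -0.88 ± 0.31 (adjusted p = 0.0416) that did not pass without 0 h replicate 1 (0.0568), 0 h replicate 2 (0.228) or 24 h replicate 1 (0.311), nor with quantile normalization (0.0529). The interferon genes themselves stayed low: Ifnb1 did not exceed 68.7 on any array and Ifng did not exceed 36.3.

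Of 16 tested interferon-induced genes outside antigen presentation, 6 were higher and 5 lower at 24 h (median 0.26), beside 23.5% and 22.6% of all genes. The antiviral membrane protein gene Ifitm3 rose by 1.68 ± 0.16 and the ISG15 protease gene Usp18 by 1.43 ± 0.17. Tlr3, a sensor of double-stranded RNA, changed by -2.20 ± 0.26 and Ifit2, which binds viral RNA, by -1.72 ± 0.18. All 4 passed, with adjusted p-values of 3.82e-05 to 0.000153. Ifitm3 and Usp18 had mean signals of 52.0 and 76.7 at 0 h and passed the filter of 144.7 through treated arrays. Tlr3 and Ifit2, with means of 79.9 and 98.1 at 24 h, passed it through their 0 h arrays. The same holds for Cxcl10, among the higher genes, with means of 35.6 at 0 h and 191 at 12 h, and passed through treated arrays. Ifit3, among the lower, had means of 340.4 at 0 h and 109 at 24 h and passed through its 0 h arrays. The calls of these genes were thus tied to their being tested, and the counts include them. The higher genes were 3 without 0 h replicate 2 and the lower 3 without 24 h replicate 2.

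In the MHC class II pathway, 3 of 10 genes on the array were tested and these rose at 24 h, beside 23.5% of all genes: the lysosomal reductase Ifi30 (1.71 ± 0.18), the peptide exchange chain H2-DMa (1.41 ± 0.29) and the protease Ctsl (0.92 ± 0.19). H2-DMa was at 18.6 and 72.5 at 0 h and passed the filter of 144.7 through its 24 h arrays (162 and 160.1), so its call was tied to its being tested. The class II chains were not tested, and the highest signals of H2-Aa, H2-Ab1 and H2-Eb1 on any array were 71.7, 61.5 and 84.8. Ciita, the class II transactivator, did not exceed 63.3.

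**Figure D5:**
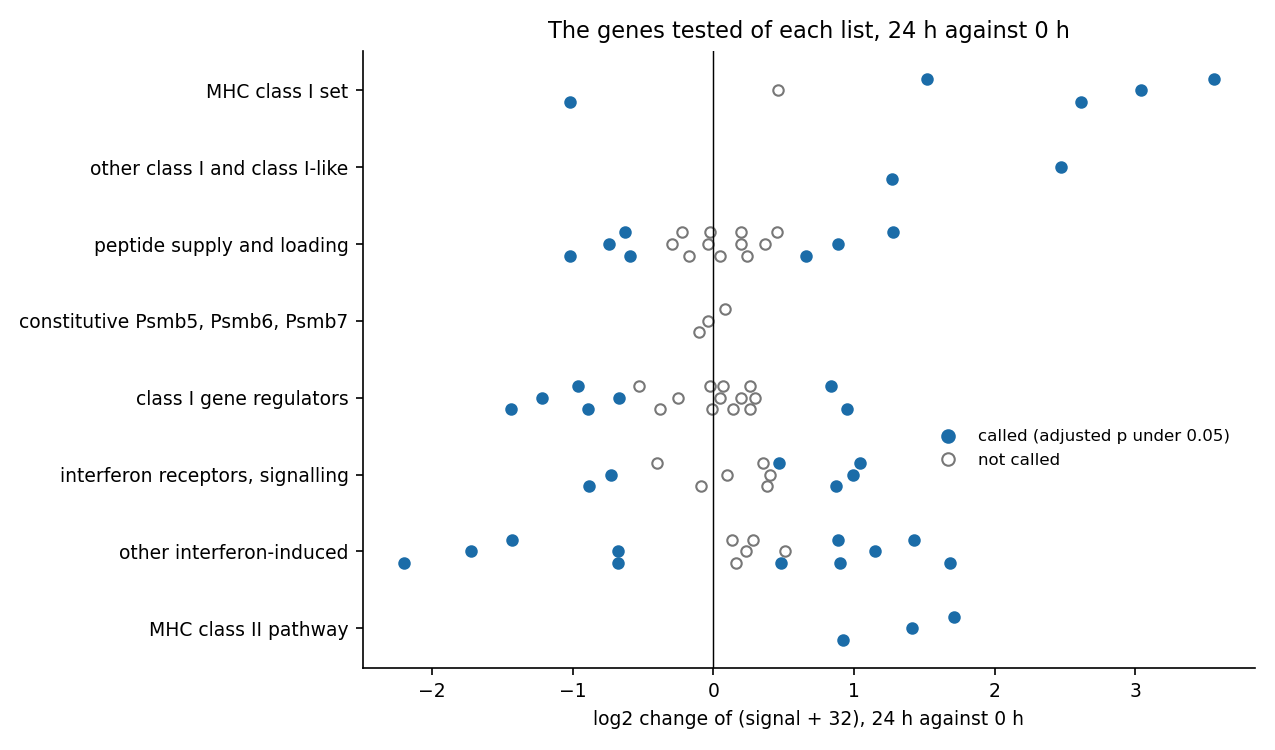
Log2 change of (signal + 32) at 24 h against 0 h for each tested gene of the 10-gene set and 7 related lists. Each point is 1 gene, read from its brightest tested probe set; filled points were called and open points were not, and vertical offsets only separate points. The class I set runs from -1.02 to 3.56, and the regulators and both interferon lists also lie on both sides of 0.

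Most epithelial markers were above the median of all signals on every array, but they did not move together. Of 17 epithelial marker genes, 14 were tested, and 6 were higher and 3 lower at 24 h, beside 23.5% and 22.6% of all genes. Krt8, Krt18, Krt19 and Epcam were above a signal of 3690 on every array. The villus gene Vil1 stayed at or below 40.7, Cdx1 at or below 7.0 and Muc1 at or below 55.3. Krt20, a keratin of differentiated cells, rose by 3.44 ± 0.24, the epithelial transcription factor Elf3 by 1.47 ± 0.24 and the tight junction gene Cldn4 by 0.77 ± 0.16. The tight junction gene Cldn3 (-0.97 ± 0.25), the intestinal factor Cdx2 (-0.71 ± 0.20) and the splicing factor Esrp1 (-0.74 ± 0.16) were lower, Cldn3 not without 0 h replicate 2 (0.0660) or 24 h replicate 1 (0.0758). Dropping 0 h replicate 1, or 24 h replicate 2, left 3 higher; dropping 24 h replicate 1 left 1 lower. The summed signal of the 17 was 78217 to 86659.8 at 0 h and 105993 to 127862 at 24 h; Krt20 went from a mean of 1377 to 15293 and Krt18 from 15219 to 23843 in it, and Krt7 from 12823 to 9626. Leukocyte markers are given because class I, B2m and Cd74 are abundant in those cells. Of 19 on the array, 2 were tested: Csf1r changed by -1.52 ± 0.21 and Cd68, a lysosomal protein gene, by 1.28 ± 0.16 at 24 h. The summed signal of the 19 was 1661 to 1813 at 0 h, 1423 to 1690.3 at 6 h, 1431 to 1523 at 12 h and 2049 to 2141 at 24 h. Most of it came from Csf1r, which went from a mean of 734 at 0 h to 231 at 24 h, and Cd68, from 424 to 1080.1. The pan-leukocyte gene Ptprc was at 45.5 and 33.9 at 0 h and 109 and 65.9 at 24 h, and Coro1a, another leukocyte gene, at 18.2 and 2.1 and then 105.5 and 95. Other markers did not rise. Itgam was at 36.0 and 23.7 at 0 h and 15.2 and 16.8 at 24 h, Lyz2 at 88.3 and 67.9 and then 54.8 and 73.4. Laptm5 was at 42.4 and 107.6 and then 65.1 and 29.9. Of the T cell chains, Cd3e did not exceed 65.2, Cd3g 56 and Cd3d 9.7. The part of leukocyte signal in the results was not tested. In bulk RNA, more cells of a type and more RNA per cell cannot be told apart. The 12 fibroblast and endothelial markers did not pass the filter.

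The 5 genes whose log2 signals over the 8 arrays were most correlated with H2-K1 were Aldh6a1 (Pearson r = 0.995), a mitochondrial enzyme of valine breakdown, the zinc finger gene Plagl1 (0.994), the proton pump subunits Atp6v0d1 (0.992) and Atp6v1e1 (0.990), and the gasdermin Gsdma (0.990). Of the members, r with H2-K1 was 0.973 for B2m, 0.955 for H2-D1, 0.887 for Cd74, 0.680 for Tapbp and -0.952 for Psmb10. Of all 7340 genes tested, 556 had r of at least 0.9 (H2-K1 itself included). The arrays share the same 4 times, and the cause of the correlations was not tested. The likeness is a description of 8 arrays.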

How the data were processed

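The authors deposited 1 table of linear signal intensity per probe set for 8 arrays (Affymetrix Mouse Expression Array 430A, per the labels and design text); the summarising software was not given in the sources used here. The intensities share a 2% trimmed mean of 500.2, as computed from the values (no source states the scaling), and were used as deposited. Groups and replicate numbers came from the sample titles. Of the 22690 probe sets, 64 controls were left out; of the rest, 20380 list 1 gene, 691 several and 1555 none. Symbols were checked against RefSeq (GRCm38.p6). A probe set was tested when at least 2 arrays exceeded 144.7, the median of all values, which left 12440.

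log2(intensity + 32) was fitted over all 8 arrays with limma 3.58.1 in R 4.3.3 (lmFit, eBayes, residual df 4, prior df 6.25). Adjusted p-values are Benjamini-Hochberg over the 12440 sets per comparison, called under 0.05. Fold changes on this scale understate those of low signals. Each gene was read from its tested set with the highest mean. The code was tested on simulated data. For arrays, their number limits the precision.

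The differences between arrays 1 and 2 of a time correlated across times at r = 0.146 to 0.391 over probe sets in all 6 pairs of times. This is over the limit of 0.1, so the replicate numbers behave as pairs, a reading from the data and not the labels. The main fit had time alone and left this pairing out. The replicate block was run as an alternative, and the calls of members that it changed are given with their values. Within a time the arrays correlated at 0.979 to 0.982 over probe sets and shared at most 0.20% of values, so none is a copy.

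Members, lists and alternatives were chosen with earlier results of these data known. Named besides the members are up to 4 called genes per list with the largest 24 h change, and the 5 genes most like H2-K1. Calr, Canx, Erap1, Irf1, Rfx5, Rela, Psmb5, Psmb6, Psmb7 and Ifngr1 were added after their values were seen. So were Irf7, Crebbp, Cxcl10, Ifit3, the class II chains, Ciita, Ifnb1, Ifng and markers beyond that rule. Alternatives were pseudocounts of 16 and 64, no filter, a filter of 4 arrays, 1 probe set per gene, quantile normalization, a trend and robust eBayes, only the arrays compared, the replicate block, the dimmest tested set of a gene, and each array left out, where the lone array is assumed to vary like the others.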

Additional observations from a re-analysis of the deposited data

How the results depend on the processing

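The 24 h counts of 4 higher and 1 lower member gene stayed within 1.5 times under all 18 alternatives. The smaller early changes did not. At 24 h with no filter, Tap1 (limma adjusted p = 0.0213) and Psmb9 (0.0192) were called higher beside the 4, so that count grew. Of the 180 recomputed gene counts, 159 stayed within 1.5 times. With no filter, more probe sets enter both the fit and the adjustment, and their parts were not told apart. Members higher at 6 h then numbered 1, lower at 12 h 0, higher from 6 to 12 h 0 and higher from 12 to 24 h 0. The 4 higher at 12 h then included Psmb9 in place of Cd74. With the dimmest tested set of each gene these counts were 1 at 6 h, 1 from 6 to 12 h and 2 from 12 to 24 h. With only the 4 arrays compared, 1 gene rose from 6 to 12 h. With the replicate block, 1 gene fell from 6 to 12 h and 2 rose from 12 to 24 h, and no other count of member genes moved by over 1.5 times. Leaving out 1 array gave 1 to 3 higher members at 6 h, 0 to 1 lower at 12 h, 0 to 2 higher from 6 to 12 h and 0 to 1 higher from 12 to 24 h. The cause of these shifts was not tested.

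Sign changes touched only differences that had not passed. With quantile normalization, H2-D1 1426324_at from 6 to 12 h was -0.04. When 1 array was dropped, its range was -0.30 to 0.34 (-0.30 without 12 h replicate 1, -0.06 with 6 h replicate 1 dropped). Over the same omissions Tapbp 1421812_at ranged from -0.23 to 0.28 at 6 h and from -0.05 to 0.45 in the step to 12 h, and was -0.01 at 6 h when 0 h replicate 2 was dropped. At 6 h, Tapbp 1450378_at ranged from -0.17 to 0.01, Psmb10 from -0.35 to 0.06, Pdia3 from -0.42 to 0.05 and Cd68 from -0.13 to 0.11. Signals under about the pseudocount of 32, as for Psmb8, carry little information here.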

Other observations

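The 4 promoter motifs shared by H2-K1, H2-D1 and B2m were found together in 36 windows of 35 genes, 3 of them members. Of the other 13 such genes that were tested, 1 rose at 24 h, H2-M3 (log2 change 1.27), while 4 were lower: Mcm7 (-1.85), Prmt1 (-1.77), Ebp (-0.93) and Ap4m1 (-0.63, adjusted p = 0.0492 in limma). Of all genes tested, 23.5% were higher and 22.6% lower, so these counts are not read as a property of the motifs. Oasl1, an interferon-induced gene with all 4 motifs, had a change of 0.51 (adjusted p = 0.0529). These genes were looked at after the values were known.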
